A study of Mus musculus with 9 samples.

Results

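The BCL2 family genes described here are Bcl2, Bcl2l1, Mcl1, Bax, Bak1, Bcl2l11, Bid, Bad, Bbc3 and Pmaip1. They were taken by gene symbol from a table of expression per gene and library, by a rule that uses no measured value. The genes named in that rule were, however, chosen with earlier results of these data known. The BCL2 family genes make up 10 of the 23849 genes listed and 10 of the 10340 genes that were tested, which are those with a mean of at least 1 FPKM over the 9 libraries. FPKM is the number of sequenced fragments per kilobase of transcript, scaled by all mapped fragments of the library. Poly-A RNA was sequenced from mouse naive CD4+ T cells that had been sorted as CD4+CD62LhighCD44low and stimulated with anti-CD3 and anti-CD28 over 24 hours, a treatment that all groups shared. There were 3 groups of 3 libraries: control (genotype wt), Fosl2 Tg, in which a transgene raises Fosl2, and a group labelled Fosl2 KO with the genotype Fosl2fl/fl CD4-cre+, in which Cre made in T cells removes floxed Fosl2 from the thymocyte stage at which Cd4 is switched on. The latter are called the libraries labelled KO below. Fosl2 encodes a subunit of the AP-1 transcription factor. The sources used here do not give the promoter of the transgene, the age of the mice or any Cre or floxed allele in the controls. Nothing in the labels says whether replicate libraries are from separate mice, so that p-values measure the spread between these libraries only, which may be technical.

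BCL2 family proteins decide whether the outer membrane of the mitochondrion stays closed. BAX and BAK1 form pores in it that release cytochrome c, the anti-apoptotic members BCL2, BCL-XL (from Bcl2l1) and MCL1 hold them in check, and BH3-only proteins such as BIM (from Bcl2l11), PUMA (from Bbc3), NOXA (from Pmaip1), BID and BAD bind and neutralise the anti-apoptotic members or activate BAX and BAK1 directly. In T cells, Bcl2 is known for keeping resting cells alive downstream of the interleukin 7 receptor, Bcl2l1 is induced by antigen receptor and CD28 signals, and BIM removes activated T cells when cytokine support ends.

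The libraries were first checked against their labels. Fosl2 was at 6.15 to 7.77 FPKM in the control libraries, 19.2 to 30.9 in Fosl2 Tg and 17.1 to 19.2 in those labelled KO. It was thus higher than control in both other groups, by 1.65 ± 0.15 (SE) on the log2 scale in Fosl2 Tg (limma, Benjamini-Hochberg adjusted p = 0.000749) and by 1.23 ± 0.15 in the libraries labelled KO (limma, adjusted p = 0.00404). The latter goes against a label of gene loss, and a value for the whole gene does not show which exons the fragments came from. Directions given for that group therefore belong to the libraries labelled KO. Depth, estimated from the steps in low FPKM values, lay between 32.4 and 58.1 M fragments (M, mega). The T cell genes Cd3e and Cd4 were expressed in every library, with Cd3e at 159 ± 5.55, 170 ± 9.93 and 158 ± 3.04 FPKM in control, Fosl2 Tg and the libraries labelled KO (SD, n = 3) and Cd4 at 178 ± 11.8, 166 ± 5.05 and 194 ± 5.25 in the same order. The 6 CD4 T cell markers tested summed to 1008 to 1054 FPKM in control, 1135 to 1313 in Fosl2 Tg and 928 to 956 in those labelled KO. Against control, 4 of the 6 were higher and 0 lower in Fosl2 Tg, where 23.6% of all tested genes passed (limma, adjusted p under 0.05). In the libraries labelled KO 0 were higher and 1 lower, where 4.46% passed. Foxp3, which marks regulatory T cells, was at 2.55 ± 0.42 FPKM in control (SD, n = 3), 0.391 ± 0.16 in Fosl2 Tg and 6.31 ± 0.15 in those labelled KO. Markers of B cells summed to at most 1.92 FPKM. Myeloid markers summed to 0.140 to 0.339 FPKM in control, 0.502 to 2.08 in Fosl2 Tg and 0.105 to 0.177 in those labelled KO. Cd14 was at 0 in all libraries. Stromal cell markers summed to 14.99 to 21.77 in control, 24.31 to 38.12 in Fosl2 Tg and 13.02 to 13.6 in those labelled KO. That list held Col1a1, Col1a2, Col3a1, Pecam1 and Epcam, of which 2 were tested and Col3a1 was at 0 in all libraries. CD8 T cell markers summed to 11.91 to 12.78 in control, 10.73 to 12.75 in Fosl2 Tg and 6.12 to 7.49 in those labelled KO. Against control, 1 stromal marker was higher in Fosl2 Tg and 1 CD8 T cell marker lower in those labelled KO (limma, adjusted p under 0.05). The sum of 5 NK cell markers was 1.09 to 1.70 FPKM in control, 2.17 to 8.77 in Fosl2 Tg and 0.353 to 0.461 in those labelled KO, with Ncr1 at 0 throughout. Klrd1 led this sum and was at 8.65, 2.31 and 2.14 FPKM in Fosl2 Tg libraries 1 to 3. The part of these differences in the results below was not tested, and in bulk RNA fewer cells of a type cannot be told apart from less RNA per cell.

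All 10 genes were expressed, over a range from Pmaip1 at 2.07 ± 0.096 FPKM to Bax at 148 ± 7.05 in control cells (SD, n = 3). Since FPKM is per length, levels can be ordered between genes. In control, Bax came highest, followed by Bcl2l1 at 106 ± 4.83 and Mcl1 at 103 ± 6.67, whose libraries overlapped. Bid, Bak1 and Bcl2l11 overlapped in turn at 22.8 to 24.7 FPKM, and Bcl2 at 13.8 ± 2.49, Bad at 6.15 ± 0.328, Bbc3 at 5.42 ± 0.36 and Pmaip1 each lay below their neighbour in that order. The order differed in Fosl2 Tg, where Mcl1 lay above Bcl2l1 and Bcl2l11 lay above Bcl2, Bak1 and Bid, which overlapped there. Among the libraries labelled KO the order was Bax, Mcl1, Bcl2l1, Bid, Bak1, Bcl2l11, Bcl2, Bbc3, Bad and Pmaip1, in which only Mcl1 and Bcl2l1, and Bbc3 and Bad, overlapped.

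**Figure D1:**
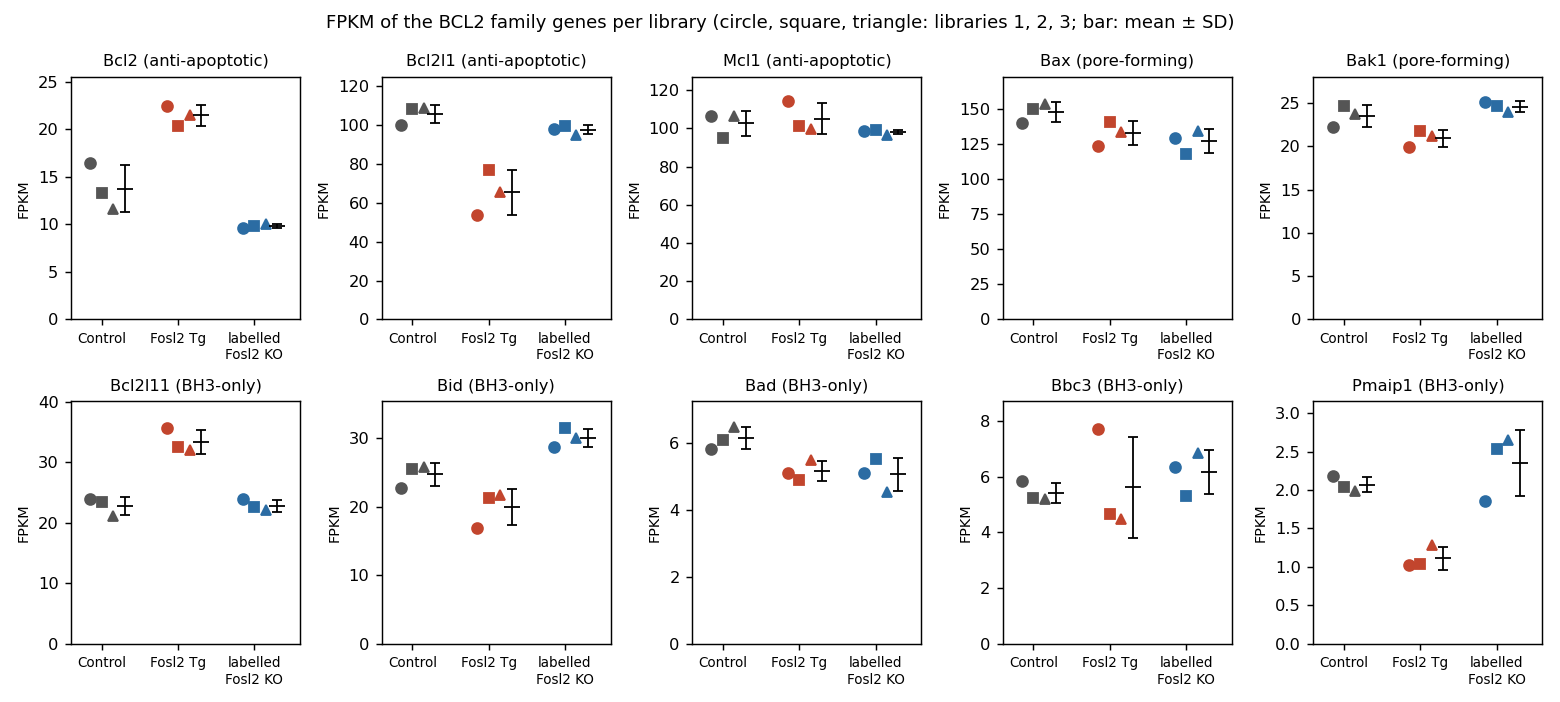
FPKM (y axis, from 0) of each of the 10 BCL2 family genes in the 9 libraries, by group (x axis), with circle, square and triangle for libraries 1, 2 and 3 and a bar for the mean ± SD. Bcl2 and Bcl2l11 are higher and Bcl2l1 and Pmaip1 lower in every Fosl2 Tg library than in every control library.

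The sequence just upstream of the start of transcription is shown for 3 of the genes that differed most, and for Bbc3, whose promoter held a motif that one of those 3 also held. RefSeq promoter entries (build GRCm38.p6, the same primary assembly as the mm10 of the files) matched 9 of the 10 genes with 15 start sites, and 250 bases upstream of each were searched on both strands. Capitals mark the letters TGTTTAC or their reverse complement, a core bound by FOXO factors, which are known to induce Bcl2l11 and Bbc3 when growth factor signals cease.
Bcl2, chr1:106714291-106714540, minus strand: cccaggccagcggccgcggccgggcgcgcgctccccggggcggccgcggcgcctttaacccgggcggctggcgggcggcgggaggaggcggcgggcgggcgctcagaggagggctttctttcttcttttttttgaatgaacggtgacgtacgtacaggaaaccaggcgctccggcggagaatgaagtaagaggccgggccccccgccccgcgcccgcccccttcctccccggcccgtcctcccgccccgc
Bcl2l1, chr2:152831729-152831978, minus strand, the outermost of 3 start sites: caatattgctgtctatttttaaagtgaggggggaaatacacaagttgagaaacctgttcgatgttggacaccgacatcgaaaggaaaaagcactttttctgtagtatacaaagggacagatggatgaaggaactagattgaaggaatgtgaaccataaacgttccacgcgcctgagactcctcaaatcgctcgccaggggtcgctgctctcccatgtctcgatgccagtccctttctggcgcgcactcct
Bcl2l11, chr2:128125788-128126037, plus strand, the first of 2 start sites: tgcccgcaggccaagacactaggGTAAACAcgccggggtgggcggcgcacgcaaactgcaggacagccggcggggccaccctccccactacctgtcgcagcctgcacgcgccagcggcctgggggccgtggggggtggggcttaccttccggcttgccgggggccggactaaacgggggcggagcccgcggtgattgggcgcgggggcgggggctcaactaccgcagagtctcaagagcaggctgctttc
Bbc3, chr7:16310011-16310260, plus strand, the second of 3 start sites: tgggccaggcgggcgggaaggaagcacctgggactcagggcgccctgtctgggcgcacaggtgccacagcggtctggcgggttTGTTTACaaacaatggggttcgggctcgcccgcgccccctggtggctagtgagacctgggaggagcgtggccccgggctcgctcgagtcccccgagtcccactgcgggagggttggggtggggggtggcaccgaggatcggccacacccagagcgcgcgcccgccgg
The FOXO letters were found 227 bases upstream of the first Bcl2l11 start and 167 bases upstream of the second Bbc3 start, in 2 of the 15 windows of the family. Of all 32851 windows of this length, 3.17% held them. The AP-1 letters TGANTCA, in which N is any base, were in 6.75% of all windows and in none of the 15, and the STAT letters TTCNNNGAA were in 7.02% and in none of the 15. The family's windows held 47.6% to 81.6% G and C against a median of 52.4% over all windows. A match describes the letters in these windows only, and a missing match says nothing of sites elsewhere.

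In Fosl2 Tg against control, Bcl2 and Bcl2l11 rose and Bcl2l1 and Pmaip1 fell. These 4 of 10 genes, 2 in each direction, compare with 23.6% of all tested genes past the same threshold in this comparison, an adjusted p under 0.05 (8.53% higher and 15.1% lower). The groups did not overlap for 7 of the 10 genes, 2 higher and 5 lower in Fosl2 Tg, against 45.2% of all tested genes. The median log2 difference of the 10 genes was -0.16, and that of all tested genes was -0.03. The changes split both the anti-apoptotic and the BH3-only genes: of the anti-apoptotic genes Bcl2 rose, Bcl2l1 fell and Mcl1 did not pass the test, and of the BH3-only genes Bcl2l11 rose and Pmaip1 fell. In the same libraries 18 of 20 cell cycle genes fell, with summed levels of 982 to 1416 FPKM in Fosl2 Tg against 1690 to 2024 in control. Its part in the BCL2 family changes was not tested.

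In the libraries labelled KO against control, none of the 10 genes passed the threshold in limma, where 4.46% of all tested genes did (2.14% higher and 2.32% lower). An unadjusted limma p under 0.05 was found for 4 genes (Bcl2, Bax, Bid and Bad). The share of all tested genes at that unadjusted threshold was not counted, so this count and the unadjusted counts of the lists below cannot be set against it. The groups did not overlap for 5 of the 10 genes, 1 higher (Bid) and 4 lower (Bcl2, Bcl2l1, Bax and Bad), against 32.8% of all tested genes. The median log2 difference was -0.03 for the 10 genes and -0.01 for all tested genes. The authors' deposited table, made with Cuffdiff, marks 1 of the 10 (Bcl2) as significant in this comparison, and marks a number of genes equal to 4.82% of the 23849 in the expression table. Weighting the libraries by quality in limma gave 3 higher and 4 lower of the 10, along with 5313 calls over all tested genes. Cell cycle genes summed to 1591 to 1822 FPKM in these libraries, and none of the 20 passed the limma threshold (6 had an unadjusted p under 0.05).

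Set directly against each other, Fosl2 Tg and the libraries labelled KO differed in 6 of the 10 genes, with Bcl2 and Bcl2l11 higher in Fosl2 Tg and Bcl2l1, Pmaip1, Bid and Bak1 lower. Of all tested genes, 38.1% passed in this comparison (17.4% higher and 20.7% lower in Fosl2 Tg). The groups did not overlap for 7 of the 10 genes, against 60.4% of all tested genes. The median log2 difference was -0.06 for the 10 genes and -0.03 for all tested genes.

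**Figure D2:**
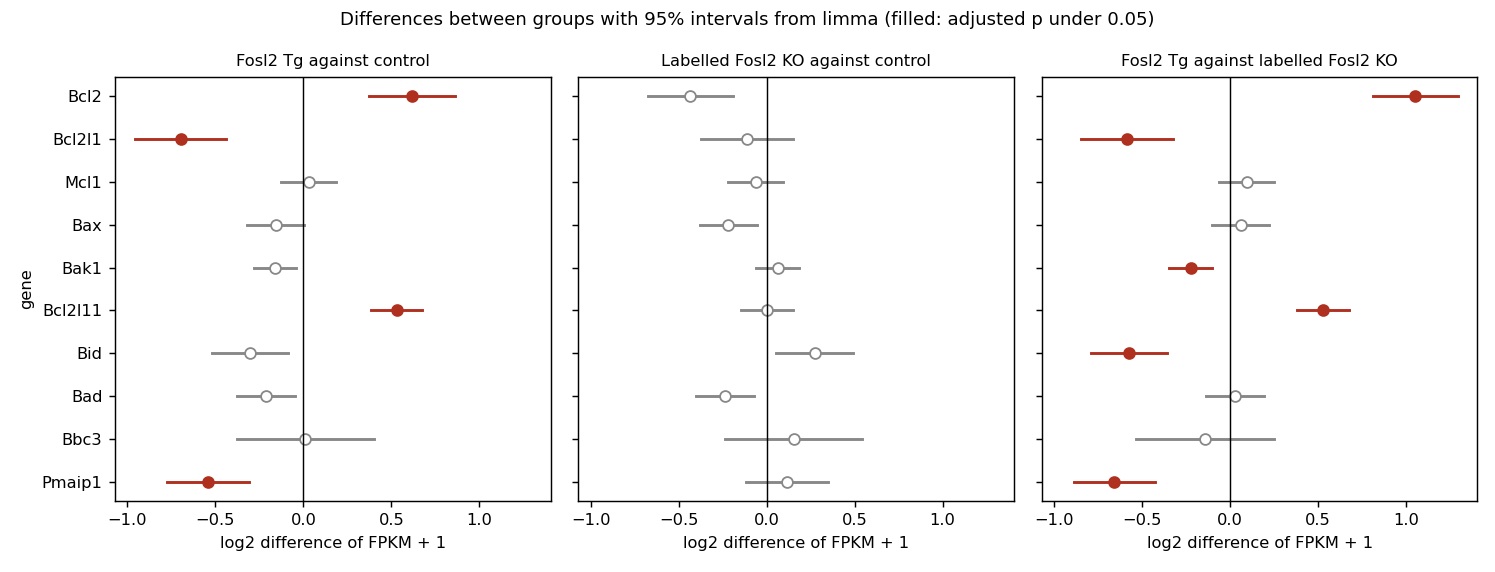
Log2 differences of FPKM + 1 (x axis) with 95% intervals from limma for the 10 genes (y axis) in the 3 comparisons, filled where the adjusted p was under 0.05. The difference for Bcl2 is 0.62 in Fosl2 Tg and -0.43 in those labelled KO, while the difference for Bcl2l11 is 0.53 in Fosl2 Tg and 0.00 in the other group.

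Bcl2 (chr1:106538179-106714290) was at 16.5, 13.3 and 11.6 FPKM in control libraries 1 to 3, at 22.5, 20.4 and 21.5 in Fosl2 Tg and at 9.66, 9.83 and 10.0 in those labelled KO. Every Fosl2 Tg library lay above, and every library labelled KO below, all control libraries. The mean was 1.56 times the control mean in Fosl2 Tg, a log2 difference of 0.62 ± 0.11 (SE; 95% interval 0.38 to 0.86; limma, adjusted p = 0.00679). The libraries labelled KO differed from control by -0.43 ± 0.11 (interval -0.68 to -0.19), which missed the threshold in limma with an adjusted p of 0.0599. That difference was called once control library 3 was left out (limma, adjusted p = 0.0241) and once Fosl2 Tg library 1 was (limma, adjusted p = 0.04). Leaving out the latter keeps the difference at -0.43 and changes the estimate of the spread, the set of tested genes and the adjustment over that set. In the authors' deposited table, Bcl2 in the libraries labelled KO against control has a log2 fold change of -0.48 and a q-value of 0.000957. Between Fosl2 Tg and the libraries labelled KO, Bcl2 differed by 1.05 ± 0.11 (limma, adjusted p = 0.000262), a ratio of means of 2.18. The 2 comparisons against control share the control libraries and are not independent.

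Bcl2l1 (chr2:152780668-152831682) encodes BCL-XL, and it fell in Fosl2 Tg. Its levels were 100.1, 108.3 and 108.7 FPKM in control, 53.6, 77.0 and 65.7 in Fosl2 Tg and 98.2, 99.7 and 95.1 in those labelled KO. The Fosl2 Tg libraries were all far below the others, library 1 lowest, and the libraries labelled KO lay just below the lowest control library. The log2 difference was -0.70 ± 0.11 in Fosl2 Tg (interval -0.96 to -0.44; limma, adjusted p = 0.00555), which left 0.619 of the control mean. The libraries labelled KO were at -0.11 ± 0.11 (interval -0.37 to 0.15; limma, adjusted p = 0.66). Without Fosl2 Tg library 1 the difference in Fosl2 Tg was -0.56 (limma, adjusted p = 0.00301).

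Mcl1 (chr3:95658721-95663178), whose protein is short-lived and much controlled after translation, overlapped Bcl2l1 in level in control. It was at 106, 94.9 and 107 FPKM in control, 114, 101 and 99.4 in Fosl2 Tg and 98.4, 99.2 and 96.7 in those labelled KO. The values of both groups overlapped those of control. Its log2 difference from control was 0.03 in Fosl2 Tg (interval -0.13 to 0.19; limma, adjusted p = 0.741) and -0.06 in those labelled KO (interval -0.22 to 0.09; limma, adjusted p = 0.685). Changes beyond about these bounds were thus not seen, but smaller ones could not be told from no change.

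Bax (chr7:45461695-45466898), a pore-forming gene and the most abundant member in every group, was at 140.3, 150.3 and 153.9 FPKM in control, 123.9, 140.7 and 133.7 in Fosl2 Tg and 129.6, 117.7 and 134.6 in those labelled KO. The Fosl2 Tg values overlapped control at their upper end, and those of the libraries labelled KO lay below control without overlap. Neither difference passed the test. In Fosl2 Tg the log2 difference was -0.16 ± 0.07 (interval -0.32 to 0.00; limma, adjusted p = 0.125), and in the libraries labelled KO it was -0.22 ± 0.07 (interval -0.38 to -0.06; limma, adjusted p = 0.144).

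Bak1 (chr17:27019812-27028626), the other pore-forming gene, was at 22.2, 24.7 and 23.7 FPKM in control, 19.9, 21.8 and 21.1 in Fosl2 Tg and 25.1, 24.6 and 23.9 in those labelled KO. Every Fosl2 Tg library lay below every library of the other groups. The log2 difference of Fosl2 Tg from control was -0.16 ± 0.05 (interval -0.28 to -0.04), with a limma adjusted p of 0.0573 that became 0.0365 without control library 1. Bak1 was lower in Fosl2 Tg than in the libraries labelled KO by 0.22 ± 0.05 on the log2 scale (limma, adjusted p = 0.0136). This call was lost without library 1 or 2 of the group labelled KO (limma, adjusted p = 0.0503 and 0.0501).

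Bcl2l11 (chr2:128126038-128162547), the gene of the BH3-only protein BIM, rose in Fosl2 Tg. It was at 23.9, 23.4 and 21.1 FPKM in control, 35.7, 32.5 and 32.0 in Fosl2 Tg and 23.9, 22.5 and 22.0 in those labelled KO. All Fosl2 Tg libraries lay above all others, and control and the libraries labelled KO overlapped. The log2 difference was 0.53 ± 0.06 in Fosl2 Tg (interval 0.38 to 0.68; limma, adjusted p = 0.00175), a ratio of means of 1.46. The libraries labelled KO were at 0.00 ± 0.06 (interval -0.15 to 0.15; limma, adjusted p = 0.997). The direct comparison of Fosl2 Tg with those libraries gave 0.53 ± 0.06 (limma, adjusted p = 0.000665).

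Pmaip1, the gene of the BH3-only protein NOXA, which binds chiefly MCL1, was the least abundant member and fell in Fosl2 Tg. It was at 2.18, 2.04 and 1.99 FPKM in control, 1.02, 1.04 and 1.28 in Fosl2 Tg and 1.86, 2.53 and 2.65 in those labelled KO. Every Fosl2 Tg library lay below all others, while the libraries labelled KO spread around control. The mean in Fosl2 Tg was 0.537 of the control mean, and the log2 difference was -0.54 ± 0.10 (interval -0.77 to -0.31; limma, adjusted p = 0.00972), a scale that understates the change of so low a gene. By the estimated depth, 112 to 203 fragments per library lay behind the Fosl2 Tg values and 256 to 279 behind those of control. Pmaip1 in the libraries labelled KO differed by 0.12 (interval -0.12 to 0.35; limma, adjusted p = 0.602).

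Bid (chr6:120893119-120916820), whose protein is cut by caspase 8 and carries death receptor signals to the mitochondrion, was at 22.8, 25.5 and 25.9 FPKM in control, 16.9, 21.3 and 21.7 in Fosl2 Tg and 28.7, 31.4 and 30.0 in those labelled KO. The 3 groups did not overlap, with Fosl2 Tg lowest and the libraries labelled KO highest. Against control neither difference passed in limma: that of Fosl2 Tg was -0.30 ± 0.09 (interval -0.52 to -0.09; adjusted p = 0.0507), and that of the libraries labelled KO was 0.27 ± 0.09 (interval 0.05 to 0.49; adjusted p = 0.169). The first was called without control library 1, Fosl2 Tg library 2 or Fosl2 Tg library 3 (limma, adjusted p = 0.045, 0.0499 and 0.0454), and the second without Fosl2 Tg library 1 (limma, adjusted p = 0.0218). Between Fosl2 Tg and the libraries labelled KO, Bid differed by -0.57 ± 0.09 (limma, adjusted p = 0.00314).

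Bad (chr19:6941855-6951893), a BH3-only gene whose protein is held inactive by phosphorylation, was at 5.84, 6.11 and 6.49 FPKM in control, 5.12, 4.89 and 5.50 in Fosl2 Tg and 5.12, 5.54 and 4.55 in those labelled KO. Both groups lay below control without overlap and overlapped each other. The log2 difference was -0.21 ± 0.07 in Fosl2 Tg (interval -0.38 to -0.05; limma, adjusted p = 0.0624) and -0.24 ± 0.07 in those labelled KO (interval -0.40 to -0.07; limma, adjusted p = 0.116), neither past the threshold. Bbc3 (chr7:16309583-16318334), the gene of PUMA and a known p53 target, was at 5.84, 5.23 and 5.20 FPKM in control, 7.71, 4.67 and 4.46 in Fosl2 Tg and 6.33, 5.31 and 6.86 in those labelled KO. Fosl2 Tg library 1 was the highest of all and the other Fosl2 Tg libraries the lowest of all. The log2 difference of Bbc3 from control was 0.01 ± 0.17 in Fosl2 Tg (interval -0.38 to 0.40; limma, adjusted p = 0.968) and 0.15 ± 0.17 in those labelled KO (interval -0.24 to 0.54; limma, adjusted p = 0.692). Without Fosl2 Tg library 1 Bbc3 was lower in Fosl2 Tg than in the libraries labelled KO by 0.36 on the log2 scale (limma, adjusted p = 0.0232).

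Ratios of members within a library need no scaling between libraries, and they are given as values with no test because the genes were chosen with these differences known. The ratio of Bcl2l1 to Bcl2l11, whose proteins bind each other, was 4.19, 4.62 and 5.14 in control, 1.5, 2.37 and 2.05 in Fosl2 Tg and 4.10, 4.42 and 4.32 in those labelled KO. All Fosl2 Tg libraries were thus well below the rest, with a mean log2 difference of -1.26 from control. The ratio of Bcl2 to Bcl2l11 was 0.601 ± 0.0768 in control, 0.643 ± 0.0252 in Fosl2 Tg, where both genes rose, and 0.431 ± 0.0257 in the libraries labelled KO, whose values lay below all others. Bcl2l1 to Bcl2 was 7.88 ± 1.68 in control, 3.07 ± 0.702 in Fosl2 Tg and 9.94 ± 0.37 in those labelled KO. Bcl2 to Bax was 0.0936 ± 0.0216, 0.162 ± 0.0185 and 0.0774 ± 0.00528 in control, Fosl2 Tg and the libraries labelled KO, and Bcl2l1 to Bax was 0.714 ± 0.0072, 0.491 ± 0.0576 and 0.770 ± 0.0708 in the same order. Mcl1 to Pmaip1 was 49.6 ± 3.59 in control, 95.8 ± 17.5 in Fosl2 Tg and 42.9 ± 8.87 in those labelled KO.

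**Figure D3:**
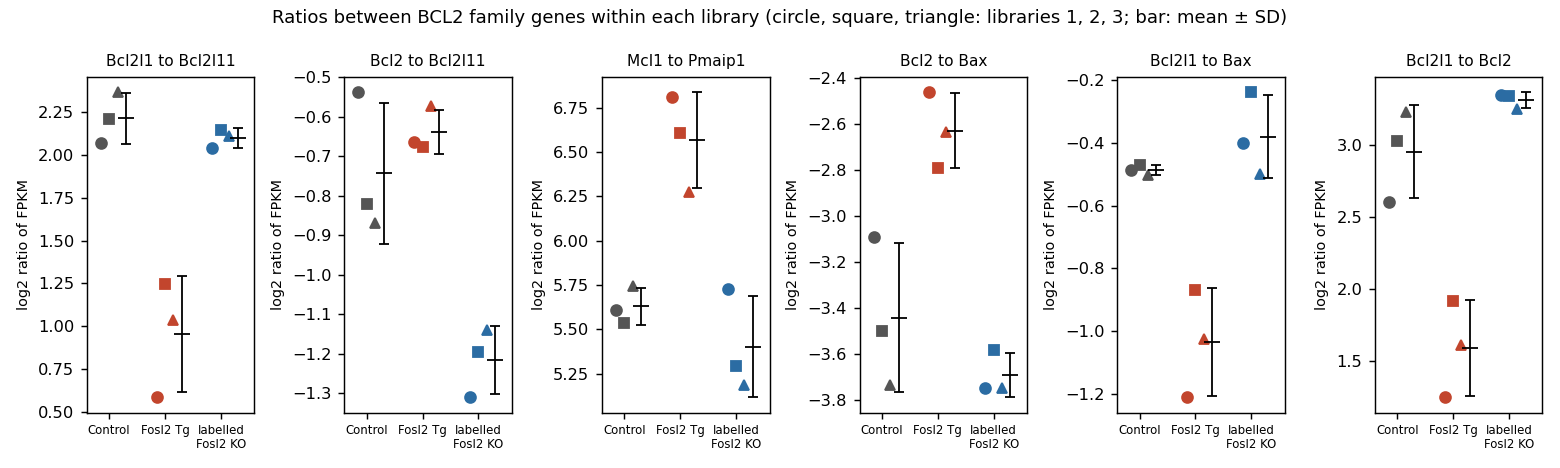
Log2 ratios of FPKM between pairs of BCL2 family genes (y axis, not from 0) in each library, by group (x axis), with the mean ± SD as a bar. The ratio of Bcl2l1 to Bcl2l11 is lower in all Fosl2 Tg libraries, and that of Bcl2 to Bcl2l11 is lower in all libraries labelled KO.

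Summed over the 3 anti-apoptotic members, the level was 222 ± 5.26 FPKM in control, 192 ± 6.07 in Fosl2 Tg and 206 ± 3.46 in those labelled KO. Bcl2 made up 6.20% of that sum in control, 11.2% in Fosl2 Tg and 4.78% in those labelled KO. The share of Bcl2l1 was 47.6%, 34.1% and 47.5% in the same order, and that of Mcl1 was 46.2%, 54.7% and 47.7%. This sum and its shares leave out the anti-apoptotic genes outside the members. Of those, Bcl2a1b alone was at 168 ± 17.5 FPKM in control, 124 ± 15.9 in Fosl2 Tg and 134 ± 1.85 in those labelled KO. The 5 BH3-only members summed to 61.2 ± 1.00 FPKM in control, 65.2 ± 1.06 in Fosl2 Tg and 66.5 ± 0.773 in those labelled KO, and Bax and Bak1 to 172 ± 8.09, 154 ± 9.38 and 152 ± 8.45. For the anti-apoptotic and the BH3-only sums, both groups lay apart from control without overlap as deposited and under the 3 other scalings tried. The Fosl2 Tg range of the Bax and Bak1 sum ended just under the lowest control value as deposited and with quantile normalization, and overlapped control under the other 2 scalings.

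Across the 9 libraries, members moved together or apart, which is given as a description because the libraries of a group share their treatment. The correlation of log2(FPKM + 1) was -0.94 for Bcl2l11 and Bcl2l1, -0.94 for Bid and Bcl2, -0.94 for Pmaip1 and Bcl2l11, -0.93 for Bak1 and Bcl2, and 0.93 for Bid and Bak1. Bbc3 and Bad were weakly related to these. The genes named next were picked for the highest correlation, so a high r and similar group differences follow from that choice. Among the tested genes whose pattern over the 9 libraries was most like that of Bcl2 were Cd84 (r = 0.996) and Tlr1 (r = 0.993). Cd84, a receptor of the SLAM family, was at 22.2 ± 2.36 FPKM in control, 30.1 ± 0.991 in Fosl2 Tg and 18.7 ± 0.231 in those labelled KO. For Bcl2l1 they were Tnfrsf4 (r = 0.989), Pibf1 (r = 0.988) and Dazap1 (r = 0.988), and Tnfrsf4, the gene of the costimulatory receptor OX40, was at 271 ± 24.7 FPKM in control and 147 ± 34.0 in Fosl2 Tg. For Bcl2l11 they were Sos2 (r = 0.988), Tnfrsf14 (r = 0.985) and Zfp317 (r = 0.983), with Tnfrsf14 at 12.2 ± 2.86 FPKM in control and 27.9 ± 4.86 in Fosl2 Tg. For Pmaip1 they were Rap2a (r = 0.967), Plxnc1 (r = 0.967) and Map2k1 (r = 0.966), with Plxnc1 at 4.48 ± 0.026 FPKM in control and 1.89 ± 0.055 in Fosl2 Tg.

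Other genes of the apoptosis pathway were counted in lists. Of all tested genes, 8.53% passed as higher and 15.1% as lower in Fosl2 Tg against control. In the libraries labelled KO these shares were 2.14% and 2.32%. Of the anti-apoptotic BCL2 genes outside the 10, the 4 that could be tested (Bcl2a1a, Bcl2a1b, Bcl2a1d and Bcl2l2) were all lower in Fosl2 Tg, with a median log2 difference of -0.40. Bcl2a1b was at 168 ± 17.5 FPKM in control and 124 ± 15.9 in Fosl2 Tg (limma, adjusted p = 0.0208). The Bcl2a1 genes are near-identical copies among which fragments may have been split, so their separate values are uncertain. The count was also unsteady: it was 0 without control library 2 or 3, 1 without Fosl2 Tg library 1, and 2 without Fosl2 Tg library 3 or any library labelled KO. In those labelled libraries 0 of the 4 passed in limma against control (1 with an unadjusted p under 0.05), and 1 (Bcl2a1b) was lower without Fosl2 Tg library 1. Of the other pro-apoptotic BCL2 genes, 0 of 5 passed in limma in either comparison against control (2 and 0 with an unadjusted p under 0.05), 1 was higher in Fosl2 Tg when small RNA genes were left out of the scaling, and Bmf, Hrk and Bok were below the level tested.

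Downstream of the mitochondrion, among 13 apoptosome and caspase genes, Casp6 rose in Fosl2 Tg from 6.90 ± 0.484 to 10.6 ± 0.478 FPKM (limma, adjusted p = 0.00191). The list had 0 calls in the libraries labelled KO in limma, with 5 genes at an unadjusted p under 0.05 (2 were called lower without Fosl2 Tg library 1). Of 5 inhibitor of apoptosis genes, Birc5, which encodes survivin and is also a gene of cell division, fell in Fosl2 Tg from 37.1 ± 7.41 to 13.6 ± 3.21 FPKM (limma, adjusted p = 0.00314). Xiap, a caspase inhibitor, was higher at 19.4 ± 0.785 against 16.9 ± 1.08 (limma, adjusted p = 0.0424), which was lost without 7 of the 9 libraries, all but control library 1 and Fosl2 Tg library 1. In the libraries labelled KO 0 of the 5 passed (limma, 2 with an unadjusted p under 0.05).

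Among 11 genes of the death receptor pathway, 1 rose and 1 fell in the libraries labelled KO (2 fell without Fosl2 Tg library 1). Tnfsf10, the gene of the ligand TRAIL, rose there from 1.37 ± 0.131 to 2.32 ± 0.0566 FPKM (limma, adjusted p = 0.00406), and Fasl, the gene of FAS ligand, fell from 9.34 ± 0.498 to 5.74 ± 0.479 (limma, adjusted p = 0.00506). In Fosl2 Tg neither passed, at 1.42 ± 0.0327 and 9.03 ± 0.935 FPKM (limma, adjusted p = 0.7 and 0.674). Tnfrsf10b, a receptor for TRAIL, was lower in Fosl2 Tg at 5.10 ± 1.22 FPKM against 7.26 ± 0.522 (limma, adjusted p = 0.0392), a call lost without 7 of the 9 libraries, all but Fosl2 Tg libraries 1 and 3, and lost when small RNA genes were left out of the scaling. This list had 0 genes higher in Fosl2 Tg, 1 without Fosl2 Tg library 1 and 1 to 2 under the other scalings.

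Of 12 transcription factors known to act on BCL2 family genes, 1 rose and 4 fell in Fosl2 Tg. The shares of all tested genes were 8.53% and 15.1%. Rela, an NF-kappaB subunit, rose from 50.9 ± 2.03 to 61.9 ± 2.89 FPKM (limma, adjusted p = 0.00823) and Stat5a, which carries interleukin 2 and 7 signals, fell from 64.1 ± 2.63 to 51.2 ± 3.26 (limma, adjusted p = 0.00972). Rel fell from 50.9 ± 6.40 to 37.5 ± 1.89 (limma, adjusted p = 0.0129), a call lost without control library 2 (limma, adjusted p = 0.0555). E2f1 fell as well, from 25.4 ± 2.74 to 15.3 ± 4.01 (limma, adjusted p = 0.0205), lost without control library 2 or 3. The list's count of lower genes was 1 without control library 2 and 2 without control library 3. In the libraries labelled KO, Stat5a was at 79.0 ± 3.36 FPKM (limma, adjusted p = 0.0315), Stat3 at 44.0 ± 0.262 against 36.3 ± 1.61 in control (limma, adjusted p = 0.0319) and Rela at 41.7 ± 0.718 (limma, adjusted p = 0.0168). The Stat5a call there was lost when any 1 of the control libraries or of those labelled KO was left out, that of Stat3 without any of these or Fosl2 Tg library 3, and that of Rela without control library 2 or any library labelled KO. Without Fosl2 Tg library 1 there were 4 genes higher in the libraries labelled KO. Trp53, the gene of p53, was at 113 ± 5.46, 109 ± 5.96 and 107 ± 0.348 FPKM, and Foxo1 and Foxo3 did not pass in either comparison.

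Among 9 genes of cytokine survival signals, 2 were higher (Jak1 and Il2rg) and 3 lower (Il2, Il2ra and Il15ra) in Fosl2 Tg. The shares of all tested genes were 8.53% and 15.1%. Jak1 was at 78.1 ± 7.20 FPKM in control and 107 ± 21.5 in Fosl2 Tg (limma, adjusted p = 0.0399). That call was lost without control library 2 or 3 or any library labelled KO. Il2, whose product supports activated T cells, fell from 160 ± 18.9 to 62.5 ± 14.4 FPKM (limma, adjusted p = 0.00145). Il2ra, a subunit of its receptor, was at 97.5 ± 4.0 and 72.1 ± 12.7 (limma, adjusted p = 0.0292), which no longer passed without any 1 control library or without library 3 labelled KO. The count of lower genes was 1 without control library 2 or 3, and the count of higher genes was at most 1 without any library. Il7r, the receptor subunit known to maintain Bcl2, was not called against control. It was at 16.6, 10.5 and 7.59 FPKM in control and at 71.8, 16.4 and 16.3 in Fosl2 Tg, with library 1 far above the rest (limma, adjusted p = 0.113). The libraries labelled KO, at 7.15, 7.12 and 6.65, lay below control (limma, adjusted p = 0.605). Il7r was higher in Fosl2 Tg than in those by 1.81 on the log2 scale (limma, adjusted p = 0.0277). This call was lost without any 1 library labelled KO. In the libraries labelled KO 0 of the 9 passed (limma, 2 with an unadjusted p under 0.05), and without Fosl2 Tg library 1 there was 1 call in each direction.

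Of 16 genes whose products act on BCL2 family proteins after translation, 2 rose and 3 fell in Fosl2 Tg. The shares of all tested genes were 8.53% and 15.1%. Pim1, a kinase that phosphorylates BAD, rose from 74.7 ± 3.95 to 127 ± 2.80 FPKM (limma, adjusted p = 0.00134), and it fell to 39.1 ± 4.74 in the libraries labelled KO (limma, adjusted p = 0.00109), the only call of this list there as deposited. Leaving small RNA genes out of the scaling gave 4 genes of the list higher in Fosl2 Tg and 2 in those labelled KO. Bag3, a co-chaperone, rose from 1.90 ± 0.116 to 2.82 ± 0.316 (limma, adjusted p = 0.00998). Akt1, another kinase gene of this list, fell from 68.7 ± 2.78 to 57.9 ± 3.05 FPKM (limma, adjusted p = 0.0178), lost without control library 2 or 3. Cdc20 and Ube2c, which act in the mitotic ubiquitin ligase, fell from 13.3 ± 1.79 to 7.09 ± 0.855 and from 13.1 ± 3.16 to 4.52 ± 0.981 (limma, adjusted p = 0.00194 and 0.00505), as cell cycle genes did. Of 9 mitochondrial partners, Vdac1, a pore of the outer membrane, was lower in Fosl2 Tg (limma, adjusted p = 0.0333), which was lost without control library 2 or 3 or any library labelled KO. In the libraries labelled KO 0 of these 9 passed (limma, 2 with an unadjusted p under 0.05), and 1 was lower without Fosl2 Tg library 1.

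**Figure D4:**
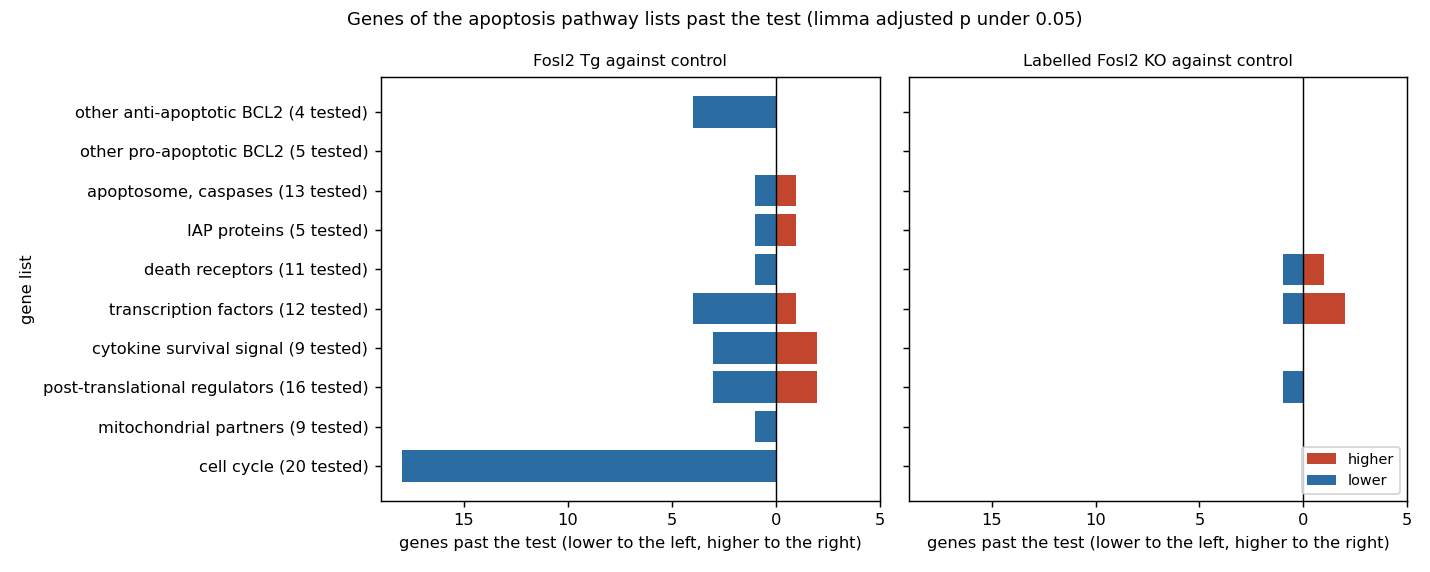
Numbers of genes (x axis) of each list (y axis) that passed a limma adjusted p of 0.05 as lower (left of 0) or higher (right of 0), in Fosl2 Tg and in those labelled KO against control. In Fosl2 Tg 18 of 20 cell cycle genes are lower, and no other list has more than 4 genes on either side. The lists are small, and of all tested genes 23.6% passed in Fosl2 Tg and 4.46% in those labelled KO.

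In the authors' deposited table, which holds only genes marked significant in at least 1 of their comparisons, 5 of the 10 genes are listed: Bcl2, Bcl2l1, Bcl2l11, Pmaip1 and Bid. The authors' deposited table marks 4 of them (all but Bid) as significant in Fosl2 Tg against control, where its marked genes come to 11.2% of the 23849 in the expression table, and 5 between Fosl2 Tg and the libraries labelled KO, where they come to 14.7%. The 23849 include genes left out of the limma fit as low, so these shares and those of the tested genes have different denominators. For Bid the q-values against control in the authors' deposited table are 0.0683 for Fosl2 Tg and 0.0561 for the libraries labelled KO.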

How the data were processed

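Per the submitters' processing notes, TopHat, Cufflinks and Cuffdiff and the genome build mm10 were used. The sources used here do not give versions, options or annotation. Per the file headers, the authors deposited FPKM for each library and a table of their comparisons that holds log2 fold changes together with p-values and q-values. Every library column matched a sample by name (0 unmatched). FPKM are not counts, so log2(FPKM + 1) of the 10340 genes with a mean of at least 1 FPKM was fitted with limma 3.58.1 in R 4.3.3 on all 9 libraries (group as the only term, variance trend), and p-values were Benjamini-Hochberg adjusted over all tested genes of each comparison, two-sided. The procedure was tested on simulated data. Differences on this scale understate changes of low genes. An exact permutation test of 3 against 3 libraries cannot go below p = 0.1. Libraries with the same number were not paired. Depth was estimated from the steps in FPKM and is approximate. Named genes are all members, up to 4 called genes per list by adjusted p, and 3 genes per called member by correlation over 9 libraries. Others (Foxp3, Cd3e, Cd4, Klrd1, Il7r, Il2rg, Akt1, Trp53, Foxo1, Foxo3) were named after their values were seen. The members and lists were chosen with earlier results of these data known. The STAT and FOXO motifs and the ratio of Bcl2l1 to Bcl2 were added later. Figures were drawn with matplotlib 3.10.9. Some results that this rule selected are not reported here.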

Additional observations from a re-analysis of the deposited data

How the results depend on the processing

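The 4 calls in Fosl2 Tg against control (Bcl2, Bcl2l1, Bcl2l11 and Pmaip1) kept their direction and stayed past the limma threshold under all 19 alternatives run (18 for Pmaip1, which a filter at a mean of 5 FPKM removes). The log2 differences ranged from 0.51 to 0.75, -0.82 to -0.56, 0.45 to 0.64 and -0.85 to -0.51 in that order. No called result changed sign. With all libraries weighted by quality, members called in Fosl2 Tg became 6 lower, those in the libraries labelled KO 3 higher and 4 lower, and all calls 5991 and 5313 against 2440 and 461. Fitting only the groups compared gave 861 and 888 calls and 1 member (Bid) higher in the libraries labelled KO, and a filter at 5 FPKM gave 289 calls there. Leaving out 1 library gave 2 to 4 members lower and 903 to 2534 calls in Fosl2 Tg against control, 0 to 1 higher, 0 to 1 lower and 169 to 1249 calls in the libraries labelled KO, and 2174 to 4113 calls between these groups. The Fosl2 difference between these groups (0.42; limma, adjusted p = 0.0594) ranged from 0.26 to 0.58 over the same fits and was 0.29 with quality weights. Same-numbered libraries did not deviate together (r from -0.13 to 0.098 in 9 pairs). With the replicate block 4 members were lower in Fosl2 Tg (Bak1 and Bid added), calls in the 3 comparisons were 3259, 491 and 4589, and Fosl2 differed by 0.42 (limma, adjusted p = 0.0324). Of the calls in Fosl2 Tg, 36.1% were higher as deposited, 46.5% with median-of-ratios scaling, 45.5% with quantile normalization and 56.8% rescaled without small RNA genes. The last moved the share in the libraries labelled KO from 47.9% to 63.1%, no filter on low values to 59.6%. For the counts of the lists and the log2 differences of the BCL2 family genes, 187 of the values moved, 25 gained and 2 lost a call. Both losses were of Bak1 between Fosl2 Tg and the libraries labelled KO. Calls of single genes within the lists were not part of this count. Many of those were lost when 1 library was left out, as given above for Xiap and Tnfrsf10b. FPKM give no counting error, so the 3 libraries per group set the precision.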
